A study of Mus musculus with 6 samples.

Results

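The 4 genes described here encode transcriptional coactivators: Ncoa2, the gene of steroid receptor coactivator 2 (SRC2), which is the gene floxed in this study, Ncoa4, Ncoa6, and Crebbp, which encodes the acetyltransferase CBP. They were found by symbol in the deposited gene table, 4 of its 2387 genes. The cells were naive CD4+ T cells from mouse spleen, activated through CD3 and CD28 and cultured for 36 hours with TGFβ and antibodies to IL-4 and IFNγ, which polarizes them toward regulatory T cells (Tregs). The control group was 3 libraries from Foxp3YFP-Cre mice, and the other was 3 libraries from SRC2fl/fl/Foxp3YFP-Cre mice, each library from a different mouse of the C57BL/6j background. They are called control cells and SRC2-floxed cells below. Both groups carry the Cre, which is made where Foxp3 is expressed, so Ncoa2 is deleted only in cells that have turned Foxp3 on, and the RNA came from the whole culture with no sorting step in the methods.

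Nuclear receptors and many other transcription factors activate genes through coactivators, which do not bind DNA themselves. The p160 or SRC family, SRC1 to SRC3, is encoded by Ncoa1 to Ncoa3. SRC proteins dock on the ligand-bound receptor and bring in CBP or its paralog p300, which acetylate histones, and arginine methyltransferases. NCOA6, also called ASC-2, is a coactivator of a different structure that belongs to a complex with the histone H3 lysine 4 methyltransferases MLL3 and MLL4. NCOA4 was first described as a coactivator of the androgen receptor and is best known as the receptor that carries ferritin to the lysosome, where its iron is released. NCOA4 and NCOA6 share the NCOA name with SRC2 but not its family.

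The table gives 1 mean per gene and genotype, in counts per 1000000 reads (CPM). Single libraries have no values in it. Their depth and the spread between mice are therefore unknown here, no value below has an SD, and no test between the genotypes was run. All 2387 genes had a P value under 0.05, not adjusted for multiple testing, in the authors' comparison. Each of the 4 genes is thus in view because the authors' test called it at that threshold. That call is not independent evidence of a difference. These genes held 13.9% of all CPM in control cells and 14.8% in SRC2-floxed cells. In the table, 30.8% of genes were lower and 69.2% were higher in SRC2-floxed cells, and the median log2 ratio was 0.33. Values below are as deposited unless they are said to be relative to this median.

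Of the 4 coactivator genes, Ncoa2, Ncoa6 and Crebbp were lower in SRC2-floxed cells and Ncoa4 was higher as deposited, though not relative to the table's median, beside 30.8% of genes that were lower in the whole table. As deposited, all 4 differences were small and alike in size, between 1.22-fold and 1.31-fold. Relative to the table's median they were not alike. The log2 ratios were then -0.69 for Ncoa2, -0.62 for Ncoa6, -0.71 for Crebbp and -0.020 for Ncoa4. All 4 passed a fold of 1.2 as deposited, as did 27.1% of the table in the lower direction and 62.1% in the higher one. None passed a fold of 1.4 as deposited, the fold that the study used for its volcano plot. As deposited, 14.1% of the table passed it in the lower direction and 26.3% in the higher one. Relative to the table's median, Ncoa2, Ncoa6 and Crebbp were past that fold and Ncoa4 was not. With 4 genes and no library values, these counts are a description.

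**Figure D1:**
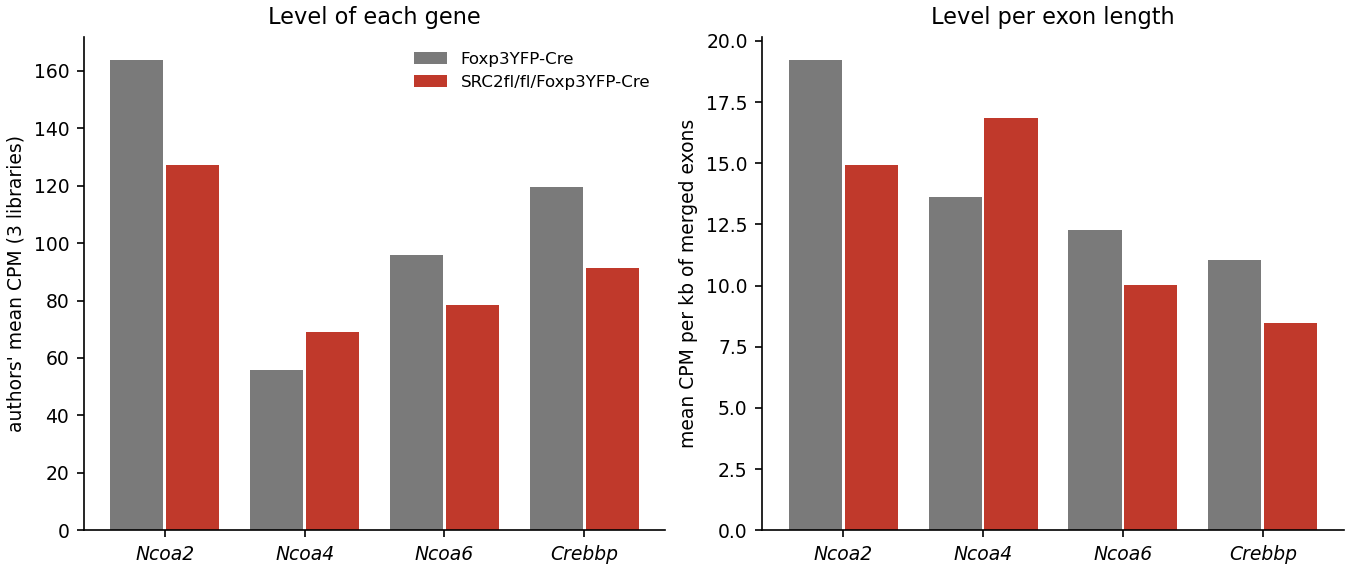
Authors' mean CPM of the 4 genes (left) and the same means divided by the length of merged exons in kb (right), in control cells (grey) and SRC2-floxed cells (red). Each bar is 1 deposited mean of 3 libraries, with no error bar because library values were not analysed. Ncoa2, Ncoa6 and Crebbp were lower in SRC2-floxed cells, Ncoa4 was higher as deposited (-0.020 on the log2 scale relative to the table's median), and per kb Ncoa2 and Ncoa4 changed places.

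Ncoa2 is the gene that the genotype labels name. In the GENCODE M21 annotation of GRCm38 it spans 13139105 to 13374083 of chromosome 1, on the minus strand. Its mean was 164 CPM in control cells and 127 CPM in SRC2-floxed cells, a difference of -36.5 CPM and a log2 ratio of -0.36. The direction is the one the labels give, and 77.7% of the control level remained. This does not check the labels, because Crebbp and Ncoa6, which were not floxed, were lower by similar folds. By size of the ratio, 65.9% of the 735 lower genes were further below their control level than Ncoa2. The value sums reads over the whole gene: which exons are floxed is not given in the sources used here, and transcripts that lack only those exons would still be counted. Foxp3, whose locus drives the Cre, had 82.5 CPM in control cells and 42.4 CPM in SRC2-floxed cells, or 51.4% of the control level. In these bulk cultures, the share of cells with the deletion and the loss of Ncoa2 RNA per cell cannot be told apart.

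Crebbp, the gene of the acetyltransferase that SRC proteins recruit, had the largest fold of the 4 genes. It spans 4081328 to 4213997 of chromosome 16, on the minus strand. Its mean was 119 CPM in control cells and 91.4 CPM in SRC2-floxed cells, a log2 ratio of -0.39, with 76.6% of the control level remaining. The remaining shares of Crebbp and Ncoa2 were thus 76.6% and 77.7%, although only Ncoa2 was floxed. Ncoa2 stood to Crebbp as 1.37 to 1 in CPM in control cells and as 1.39 to 1 in SRC2-floxed cells, a ratio that a common factor applied to all libraries of a genotype leaves as it is.

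Ncoa6, on the minus strand of chromosome 2 from 155390656 to 155473894, was lower by a smaller fold. Its mean was 95.8 CPM in control cells and 78.3 CPM in SRC2-floxed cells, a log2 ratio of -0.29, with 81.8% of the control level remaining. The log2 ratio of Ncoa2 minus that of Ncoa6 was -0.074, and minus that of Crebbp it was 0.022. No error can be set on these gaps, so the order of the 3 lower genes is not established.

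Ncoa4 was the only one of the 4 genes that was higher as deposited. It spans 32159865 to 32179855 of chromosome 14, on the plus strand. Its mean was 55.8 CPM in control cells and 69.1 CPM in SRC2-floxed cells, a log2 ratio of 0.31. The gene lay almost at the median of the table: relative to the median of 0.33 its log2 ratio was -0.020, and its direction turned. Of the 1652 higher genes, 77.7% had a larger ratio. A common factor per genotype leaves the gaps between Ncoa4 and the other 3 genes as they are, though not the direction of each gene. Ncoa2 stood to Ncoa4 as 2.93 to 1 in CPM in control cells and as 1.84 to 1 in SRC2-floxed cells. The log2 ratio of Ncoa4 was 0.60 above that of Ncoa6 and 0.69 above that of Crebbp.

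The Ncoa4 value also rests on how reads were divided between near-identical sequences. The table holds a second gene, Ncoa4-ps, which GENCODE M21 lists as the processed pseudogene Gm6768, on the plus strand of chromosome 12 from 119260978 to 119262855. Its transcript of 1 exon matched an Ncoa4 transcript of 10 exons and 3343 bases over 1878 bases, 56.2% of that transcript, with 2 mismatches and no gap, an identity of 99.9%. The stretches around both mismatches are shown because they are the only places in this alignment where a read that maps within it can be assigned by its bases. Each is 5′ to 3′ with the differing base in capitals, and positions count from 1 at the 5′ end of that Ncoa4 transcript. Both lie in coding sequence of exon 8, at chr14:32176516-32176556 and chr14:32176737-32176777 of GRCm38, against chr12:119262269-119262309 and chr12:119262490-119262530 in the pseudogene.
Ncoa4, A1358G: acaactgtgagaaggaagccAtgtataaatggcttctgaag
Ncoa4-ps, A1358G: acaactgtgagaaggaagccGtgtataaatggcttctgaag
Ncoa4, G1579A: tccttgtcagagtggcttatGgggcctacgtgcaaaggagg
Ncoa4-ps, G1579A: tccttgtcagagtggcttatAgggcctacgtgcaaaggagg

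The longest stretch with no difference was 1311 bases, and a read that falls within such a stretch carries no distinguishing base. Reads were quantified with an expectation-maximization (E/M) algorithm, which divides such reads by estimate. Ncoa4-ps had 25.8 CPM in control cells and 34.1 CPM in SRC2-floxed cells, a log2 ratio of 0.40, in the same direction as Ncoa4. Ncoa4 held 68.4% of the summed CPM of both genes in control cells and 67.0% in SRC2-floxed cells. The sum was 81.6 CPM against 103 CPM, a log2 ratio of 0.34. This sum does not depend on how the reads counted for either gene were divided between them. Whether all reads that match both genes were counted is not given in the sources used here. Both were higher as deposited, so the sum was bound to be higher, and it is no separate support for the direction of Ncoa4. The level of Ncoa4 is uncertain, and Ncoa4 and Ncoa4-ps do not count as separate observations.

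The other 3 genes had no copy this close among the GENCODE M21 transcripts. For Ncoa2, the closest stretch of at least 100 bases was in the long noncoding RNA D030018L15Rik, with an identity of 93.6% over 543 bases. For Crebbp, it was in Ep300, the p300 gene, with 79.2% over 818 bases, and the Ncoa6 transcript searched had no match to another gene. D030018L15Rik and Ep300 were not analysed here.

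**Figure D2:**
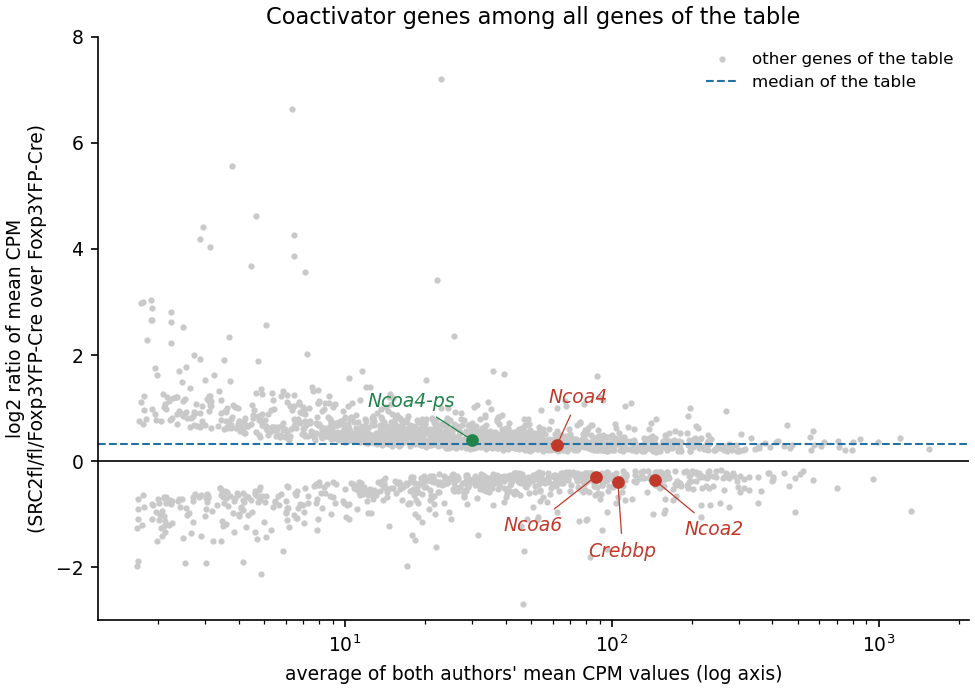
Each point is 1 of the 2387 genes, by the average of both authors' mean CPM values (horizontal, log axis) and the log2 ratio of mean CPM, SRC2-floxed over control (vertical). The 4 coactivator genes are red, Ncoa4-ps is green, and the dashed line is the median log2 ratio of 0.33. Genes near a ratio of 0 are missing because the table holds only genes that the authors' test called, and the 4 coactivator genes lie close to this empty band at high levels.

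All 4 genes were well expressed for this table, whose median gene averaged 32.0 CPM over both genotypes. Ncoa2 held rank 230 of the 2387 genes by this average, Crebbp rank 319, Ncoa6 rank 424 and Ncoa4 rank 632. Among the 917 genes at 50 CPM or more in the higher genotype, 34.2% were lower and the median log2 ratio was 0.27. CPM grows with transcript length, so levels were compared between genes per kb of merged exons. In control cells, Ncoa2 came first with 19.2 CPM per kb, followed by Ncoa4 with 13.6, Ncoa6 with 12.3 and Crebbp with 11.0. In SRC2-floxed cells, Ncoa4 came first with 16.9 CPM per kb, followed by Ncoa2 with 14.9, Ncoa6 with 10.04 and Crebbp with 8.45. Ncoa2 and Ncoa4 thus changed places, and they did so also per kb of the longest transcript, with 20.04 and 13.7 CPM per kb in control cells and 15.6 and 17.0 in SRC2-floxed cells. Without a spread, none of the neighbours in this order can be said to differ, and the Ncoa4 level depends on the reads assigned to its pseudogene.

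Genes of the same machinery were taken from 9 lists. Outside the 4 genes the lists held 74 genes, of which 17 were in the table, 9 lower and 8 higher, beside 30.8% lower and 69.2% higher in the whole table. Their median log2 ratio was -0.17, beside 0.33 over all genes. That median is the value of 1 gene, Nfatc3, and the next higher of the 17 was Fth1 at 0.26. Genes near a ratio of 0 are missing from the table, so this median follows the count of 9 lower against 8 higher. Of these 17, 6 passed a fold of 1.4, with 3 in each direction, beside 14.1% of the table in the lower direction and 26.3% in the higher one. Relative to the table's median, 11 of the 17 were lower, as were 49.98% of all genes in the table. A gene of a list that is not in the table was not analysed here and is counted as neither changed nor unchanged.

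**Figure D3:**
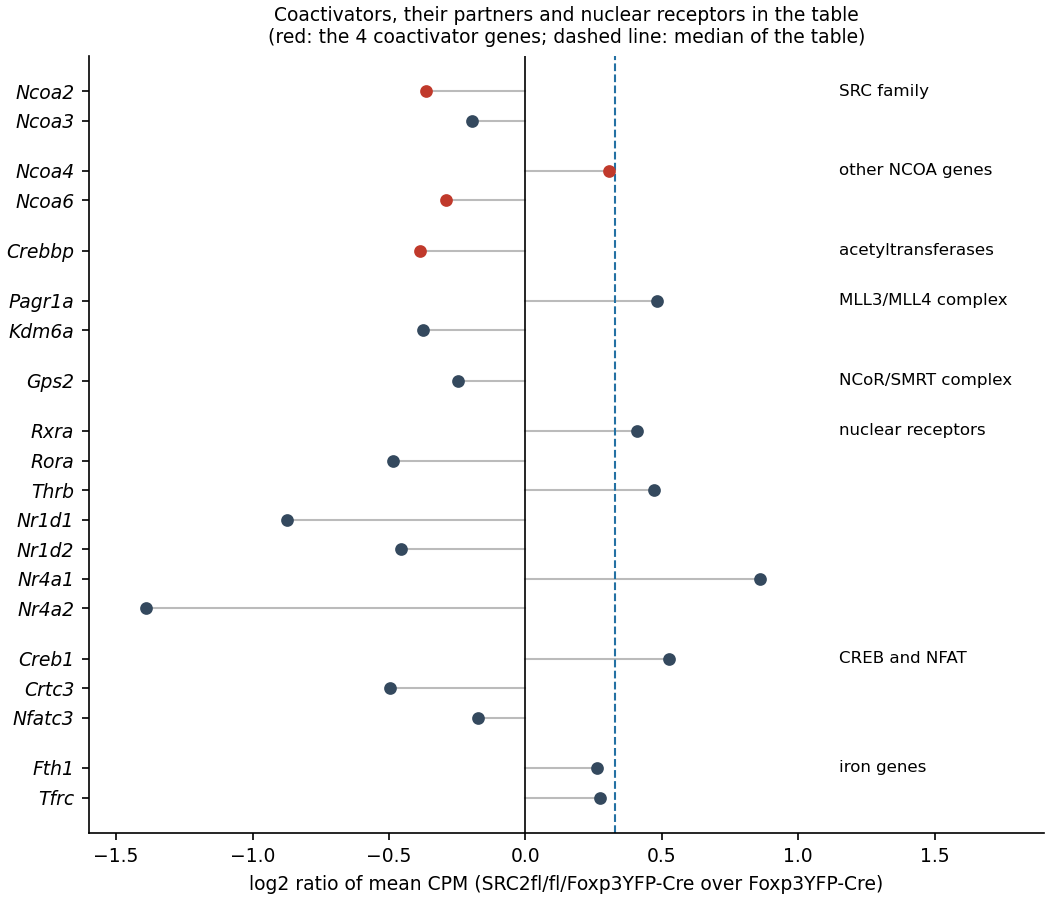
Log2 ratio of mean CPM, SRC2-floxed over control, of the list genes found in the table (1 gene not reported here is left out; 1 point per gene, from 2 group means, so without error bars). Red points are the 4 coactivator genes, the solid line marks no difference and the dashed line the table's median of 0.33. Nuclear receptors spread on both sides, from Nr4a2 at -1.39 to Nr4a1 at 0.86, whereas both iron genes lie just below the median.

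Of the SRC family, 2 of 3 genes were in the table, the floxed Ncoa2 itself and Ncoa3. Both were lower, as were 30.8% of genes in the whole table. Ncoa3, the gene of SRC3, had 185 CPM in control cells and 161 CPM in SRC2-floxed cells and a log2 ratio of -0.19. Ncoa1, the gene of SRC1, was not analysed here. Crebbp was the only one of 5 acetyltransferase genes in the table, and neither of 2 arginine methyltransferase genes was. Of 9 genes of the MLL3/MLL4 complex, 2 were in the table and they went opposite ways. Kdm6a, which encodes the histone H3 lysine 27 demethylase UTX, had 56.8 CPM in control cells and 43.7 CPM in SRC2-floxed cells, a log2 ratio of -0.38. Pagr1a, a small subunit of the complex, had 9.97 CPM and 13.9 CPM, a log2 ratio of 0.48. Of 6 genes of the NCoR/SMRT corepressor complex, which opposes coactivators at nuclear receptors, Gps2 alone was in the table, with 24.4 CPM and 20.6 CPM and a log2 ratio of -0.25.

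Of 27 nuclear receptor genes, 8 were in the table, 4 lower and 4 higher, beside 30.8% and 69.2% of the whole table. The lower ones were Nr4a2, an orphan receptor, with a log2 ratio of -1.39, the clock repressors Nr1d1 with -0.87 and Nr1d2 with -0.46, and Rora with -0.49. Rora, one of the retinoid-related orphan receptors, had 176 CPM in control cells and 126 CPM in SRC2-floxed cells. Nr4a1 went opposite to its paralog Nr4a2, with 137 CPM and 249 CPM and a log2 ratio of 0.86. Rxra, the shared dimer partner of many receptors, had 178 CPM and 237 CPM, a log2 ratio of 0.41, and Thrb, a thyroid hormone receptor, had 0.47 at under 10 CPM in both genotypes.

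Of 11 genes of CREB and NFAT factors and CREB coactivators, 3 were in the table. Creb1, the factor for which CBP is named, was higher, with 87.0 CPM in control cells and 125 CPM in SRC2-floxed cells and a log2 ratio of 0.53. Crebbp, its coactivator, was lower, so the CPM of Creb1 passed that of Crebbp only in SRC2-floxed cells, a statement on reads and not on molecules. Crtc3, another CREB coactivator, had 55.8 CPM and 39.6 CPM, a log2 ratio of -0.50, and Nfatc3 had 272 CPM and 241 CPM, a log2 ratio of -0.17. Of 11 iron genes, 2 were in the table. Fth1, the ferritin heavy chain that NCOA4 binds, had 235 CPM and 282 CPM, a log2 ratio of 0.26, and Tfrc, the transferrin receptor, had 644 CPM and 779 CPM, a log2 ratio of 0.28. Both stood beside Ncoa4 at 0.31 as deposited, and relative to the median of the table both were slightly below it, at -0.066 and -0.053.

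For each coactivator gene, the 2 genes closest in both log2 mean CPM values were also read out, a likeness over only 2 group means. They were Ugcg and Rbm33 for Ncoa2, Uqcrq and Usp10 for Ncoa4, Il17ra and Tacc1 for Ncoa6, and Gsk3b and Zfp292 for Crebbp. The largest distance among these 8 was 0.04 on the log2 scale. Gsk3b, a kinase gene, had 119 CPM in control cells and 90.4 CPM in SRC2-floxed cells, next to 119 CPM and 91.4 CPM for Crebbp. Ugcg, the gene of glucosylceramide synthase, had 166 CPM and 128 CPM, next to 164 CPM and 127 CPM for Ncoa2.

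Markers of cell types were also read out. Each marker in the table is there because the authors' test called it, so that it differs is given by selection. Over the whole table, 30.8% of genes were lower and 69.2% were higher in SRC2-floxed cells. Of 11 CD4 T cell markers, Cd28 alone was in the table, with 256 CPM in control cells and 180 CPM in SRC2-floxed cells. Of 7 Treg markers 4 were in the table, Foxp3, Ikzf4, Ctla4 and Icos, all lower, with a summed level of 572 CPM in control cells and 345 CPM in SRC2-floxed cells. Of 9 myeloid and dendritic cell markers 4 were in the table, all higher, with a summed level of 2.88 CPM and 64.9 CPM. In SRC2-floxed cells most of this sum came from Lyz2, with 0.31 CPM in control cells and 45.4 CPM in SRC2-floxed cells. Zbtb46 had 2.05 CPM and 3.22 CPM. Of 5 mast cell markers 2 were in the table, both higher, with 1.47 CPM and 19.0 CPM summed. Lyz2, H2-Aa, H2-Ab1 and Mcpt1 had at most 0.36 CPM in control cells, and Mcpt2 had 1.11 CPM. Such genes could reach the table's lowest sum over the 6 libraries, 10.02 CPM, only through SRC2-floxed cells. Of 7 B cell markers 1 was in the table, Cd74, with 55.9 CPM and 75.3 CPM. H2-Aa and H2-Ab1, counted above as myeloid and dendritic cell markers, and Cd74 are not specific to the cell types they were listed under. None of 4 CD8 T and NK cell markers was in the table, and no marker in the table was at 0. The part of cell composition in the values of the coactivator genes was not tested.

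**Figure D4:**
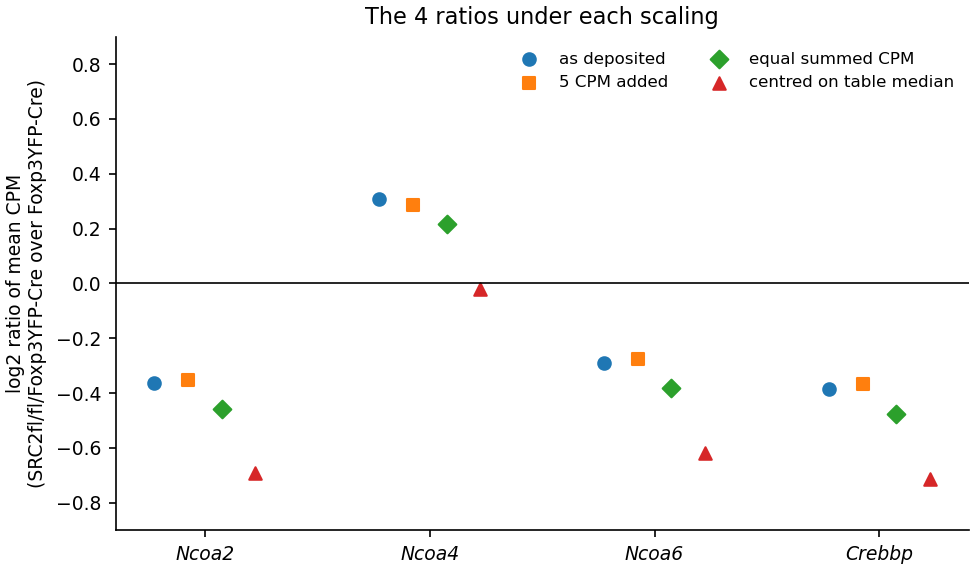
Log2 ratio of mean CPM, SRC2-floxed over control, of the 4 genes as deposited (circles), with 5 CPM added to both means (squares), scaled to equal summed CPM over the table (diamonds) and centred on the table's median (triangles). Ncoa2, Ncoa6 and Crebbp stay below 0 under each, whereas Ncoa4 goes from 0.31 as deposited to -0.020 when centred.

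Scaling by 1 factor per genotype moved all 4 ratios by the same amount and so left the gaps between them as they were. With the summed CPM of the table made equal, the log2 ratios were -0.46 for Ncoa2, -0.38 for Ncoa6, -0.48 for Crebbp and 0.22 for Ncoa4. Relative to the table's median they were -0.69, -0.62, -0.71 and -0.020. The table is a selected part of the transcriptome, so neither quantity estimates the scaling over all genes, which was not analysed here.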

How the data were processed

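RNA-seq was performed on 6 libraries, 3 per genotype. Per the study's methods, the authors mapped reads to GRCm38, estimated gene levels by Partek E/M, scaled these to CPM plus 0.001 and ran Partek GSA between genotypes. The sources used here do not name the aligner, the annotation or the Partek version. The deposited CPM values are the authors' means per genotype. Their column of totals, also deposited, is 3 times both means added together in each of 2387 genes (relative tolerance 1e-06), so it is summed CPM and not raw counts. The authors' ratio, fold change and adjusted p-value columns were not used, and the deposited P-value column was read only to check that every gene lay under 0.05. The smallest sum over the 6 libraries was 10.02 CPM.

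The log2 ratio was computed as log2 of the mean CPM of SRC2fl/fl/Foxp3YFP-Cre over that of Foxp3YFP-Cre. Exon lengths and positions are from GENCODE M21, on GRCm38, and merged exons are those of basic protein-coding transcripts. Copies were searched with blastn 2.17.0 (e-value 1e-10) against GENCODE M21 transcripts. Ncoa4-ps was matched to Gm6768 through RefSeq synonyms. Python 3.11.15, pandas 2.3.3 and numpy 2.4.6 were used, and the computations were tested on simulated means. The genes and lists were chosen with earlier results of these data known. Named genes were the 4 coactivator genes, each list gene in the table, and the 2 nearest genes of each. The value of 1 list gene is not reported here. Offsets, scalings and level filters were alternatives. The sum with Ncoa4-ps, the length per longest transcript and the genes near Ncoa2 were added after seeing the data.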

Additional observations from a re-analysis of the deposited data

How the results depend on the processing

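Without values per library, no result could be recomputed with a library left out and no count-based test could be run. No paired analysis was possible because each deposited value is a group mean without replicate numbers. Centred on the median log2 ratio of the table, Ncoa4 reversed from 0.31 to -0.020, and Ncoa2, Ncoa6 and Crebbp moved to -0.69, -0.62 and -0.71. The count of lower coactivator genes was then 4 in place of 3, and 1193 genes in all (49.98%) were lower in place of 735. Scaled to equal summed CPM, the log2 ratios were -0.46 for Ncoa2, 0.22 for Ncoa4, -0.38 for Ncoa6 and -0.48 for Crebbp. With 5 CPM added they were -0.35, 0.29, -0.27 and -0.37, and with 1 CPM added Ncoa4 had 0.30 and Crebbp -0.38. Ncoa4 and Ncoa4-ps summed gave 0.34. With at least 50 CPM in the higher genotype, 314 genes were lower.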

Other observations

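Within 5 Mb of the floxed Ncoa2 gene on chromosome 1, the table held 9 other genes, 4 lower and 5 higher in SRC2-floxed cells, beside 30.8% lower and 69.2% higher in the whole table. The nearest was Rpl5-ps1, a ribosomal protein pseudogene 1.49 Mb away, with 4.48 CPM in control cells and 2.60 CPM in SRC2-floxed cells. Snhg6, a noncoding gene that hosts a small nucleolar RNA, 3.19 Mb away, had 80.7 CPM and 12.5 CPM, a log2 ratio of -2.69, far larger than the -0.36 of Ncoa2 itself. On the same side, Cspp1, a centrosome and spindle pole gene, had a log2 ratio of -0.39 and lay 3.00 Mb away, whereas Vcpip1, a deubiquitinase gene 3.39 Mb away, and Rrs1, a ribosome biogenesis gene 3.59 Mb away, had 0.28 and 0.39. Gm15452, 4.35 Mb away on that side, had -0.70 at under 3 CPM. On the other side, the neighbours Eloc, an elongin subunit gene, and Tmem70, an assembly factor of the mitochondrial ATP synthase, had 0.32 and 0.48. Stau2, which encodes a double-stranded RNA-binding protein, had 0.63 at under 7 CPM. These genes were chosen by position after the data were seen, and their values carry no test.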
